A study of Mus musculus with 6 samples.

Results

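The genes described here belong to the family of CXC chemokines, small secreted proteins that attract leukocytes. The genes were Cxcl1, Cxcl2, Cxcl9, Cxcl10, Cxcl11, Cxcl12, Cxcl13, Cxcl14 and Cxcl16, which are 9 of the 22180 genes measured. A probe set was taken where the platform annotation gave it exactly 1 gene and that gene was among the 9. Probe sets were to be chosen by their mean signal on the 6 arrays, the brightest per gene, but each of the 9 genes had only 1, so no measured value decided between them. The 9 genes were proposed as a group with earlier results of these data known, so their number among the changed genes describes them and carries no independent support.

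RNA was taken from CD4+ CD8+ double-positive thymocytes, T-cell precursors with both coreceptors on their surface, and measured on single-channel Affymetrix arrays. There were 3 arrays from Ets1-/- mice and 3 from wild-type mice, all C57BL/6 and 5 to 6 weeks old. Ets1 encodes a DNA-binding protein of the ETS family, and the comparison asks which transcripts depend on it at this stage. In both groups the cells were fixed in formaldehyde and then isolated with magnetic beads through CD8 and CD4. The labels name no Cre or conditional allele, so nothing in them limits the loss of Ets1 to thymocytes. Litter-mate cohorts served as biological replicates, and the sources used here do not say whether an array held 1 animal or several.

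CXC chemokines act through G-protein-coupled receptors on leukocytes, and they fall into groups by receptor and by the signal that induces them. Cxcl9, Cxcl10 and, where its gene is intact, Cxcl11 are induced by interferons and bind Cxcr3 on activated T cells and natural killer cells. Cxcl16 is made as a membrane-anchored protein by macrophages and dendritic cells, and it binds Cxcr6. Cxcl1 and Cxcl2 recruit neutrophils through Cxcr2. Cxcl12 binds Cxcr4, a receptor that thymocytes use during their passage through the cortex, and Cxcl13 binds Cxcr5 and guides B cells.

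Of the 9 genes, 3 were higher on the Ets1-/- arrays and 0 were lower in a limma test adjusted over all genes, with a threshold of 0.05. At an unadjusted p under 0.05 the counts were 3 higher and 1 lower, which was Cxcl11. The share of all genes under that unadjusted threshold was not counted. Counts at it, here and for the lists below, therefore have no background and are not read as changes. The higher genes were Cxcl10, Cxcl16 and Cxcl9. Among all 22180 genes, 1.29% were called higher and 0.568% lower by the same test. The 3 Ets1-/- arrays all lay above the 3 wild-type arrays for the same 3 genes, and 0 of the 9 genes had all Ets1-/- arrays below. Over all genes those shares were 5.76% and 16.1%. The other 6 genes had overlapping groups, with log2 differences from -0.77 to 0.02 and adjusted p from 0.303 to 0.978. The median log2 difference was -0.21 over the 9 genes and -0.22 over all genes, so the difference of each of the 9 genes is also given relative to the median of all genes.

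**Figure D1:**
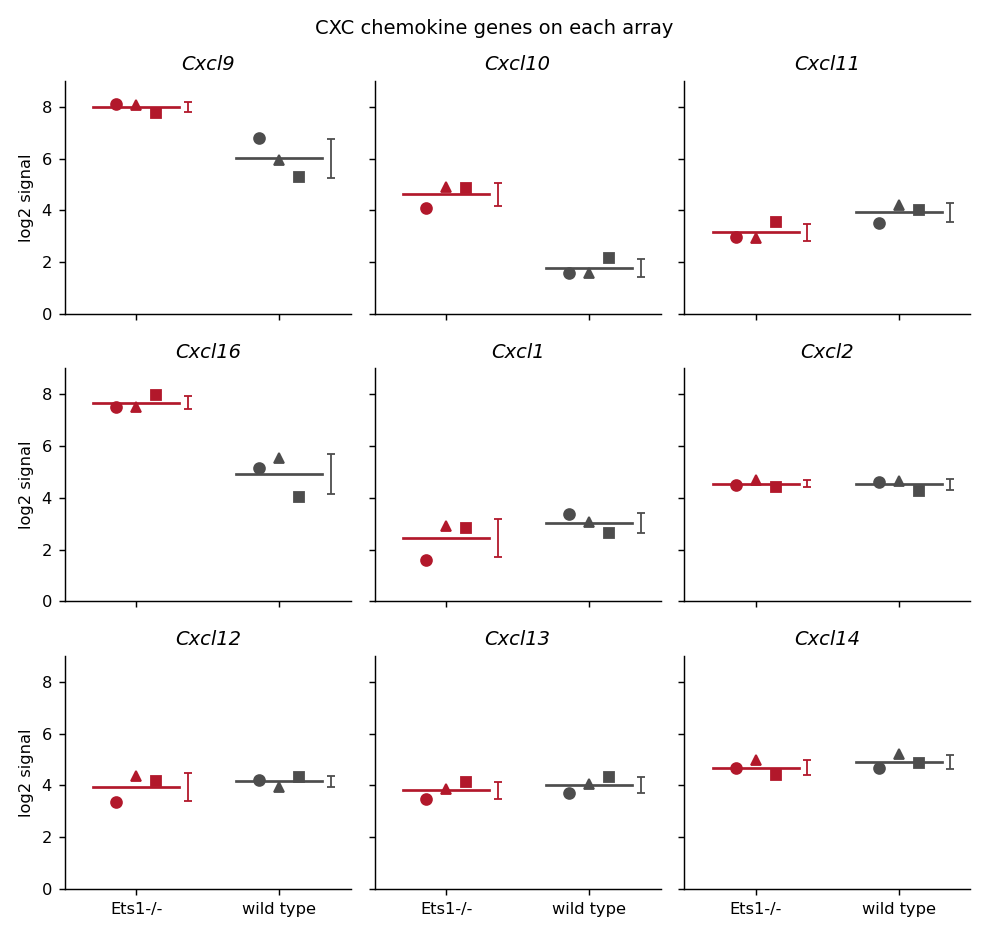
Log2 signal of the 9 CXC chemokine genes (vertical axis) on the 3 Ets1-/- arrays (red, left) and the 3 wild-type arrays (grey, right). Circles, triangles and squares are replicates 1, 2 and 3, horizontal lines are means and the bars beside them are 1 SD (n = 3). For Cxcl9, Cxcl10 and Cxcl16 every Ets1-/- array lay above every wild-type array, and for the other 6 genes the groups overlapped.

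Of the group of interferon-induced ligands, Cxcl10 and Cxcl9 were called higher and Cxcl11 was not called. Cxcl10 had log2 signals of 4.10, 4.90 and 4.86 on the Ets1-/- arrays, against 1.57, 1.60 and 2.18 on the wild-type arrays. The groups were separated by a gap of 1.92 on the log2 scale. Cxcl10 rose by 2.84 ± 0.31 (SE; 95% interval 2.12 to 3.56), 3.06 above the median of all genes, with a limma adjusted p of 0.00406. This is a 7.15-fold difference in signal, but wild-type Cxcl10 was among the dimmest probe sets of the array. Its percentile among all probe sets was 58.4 to 62.8 on the Ets1-/- arrays and 4.55 to 7.73 on the wild-type arrays. Because the wild-type signal was so low, the size of the rise moved with the scale: with a pseudocount of 16 added to the linear signal it was 1.07 (adjusted p = 0.00730).

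Cxcl9 had log2 signals of 8.11, 8.08 and 7.76 on the Ets1-/- arrays, against 6.80, 5.96 and 5.30 on the wild-type arrays. The Ets1-/- arrays lay close together (7.99 ± 0.19) while the wild-type arrays were spread more widely (6.02 ± 0.75; SD, n = 3 each). Cxcl9 rose by 1.97 ± 0.38 (SE; 95% interval 1.08 to 2.85), 2.19 above the median of all genes, which is a 3.90-fold difference in signal. Its limma adjusted p of 0.04997 lay just inside the threshold. The call ended without Ets1-/- replicates 1, 2 or 3 (adjusted p = 0.127, 0.162 and 0.108) and without wild-type replicates 2 or 3 (adjusted p = 0.145 and 0.108). It also ended when every probe set was tested by itself, where the adjusted p was 0.0527.

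Cxcl11 is grouped here with the ligands of Cxcr3. Its log2 signals were 2.97, 2.95 and 3.54 on the Ets1-/- arrays, against 3.53, 4.23 and 4.02 on the wild-type arrays. The highest Ets1-/- array exceeded the lowest wild-type array by 0.01, so the groups just overlapped. The log2 difference was -0.77 ± 0.29 (SE; 95% interval -1.44 to -0.11), or -0.55 relative to the median of all genes, and it did not pass the limma test (adjusted p = 0.303). The RefSeq gene table of the C57BL/6J assembly GRCm38.p6 lists Cxcl11 as a transcribed pseudogene, whereas it lists the other 8 genes as protein-coding.

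Cxcl9, Cxcl10 and Cxcl11 are neighbours on chromosome 5 in that gene table, with Art3, which encodes an ADP-ribosyltransferase-family protein, between Cxcl9 and Cxcl10. Art3, singled out after the rises of its neighbours were seen, averaged 4.13 in Ets1-/- and 4.55 in wild type, a log2 difference of -0.42 (limma adjusted p = 0.600). The rises of Cxcl9 and Cxcl10 thus had a gene between them that was not called and a pseudogene beside them that was not called. With 1.86% of all genes called, neighbours without a call are not read as a result. The bases before the annotated start of both genes are printed here because Cxcl9 and Cxcl10 were called in the same direction, with Cxcl2, which was not called, beside them. Sequences are from RefSeq (GRCm38.p6), 250 bases up to the start, 5′ to 3′ on the gene's strand. Capitals mark matches to any of 4 motifs, which are described below.
Cxcl10 promoter, chr5:92348890-92349139, minus strand: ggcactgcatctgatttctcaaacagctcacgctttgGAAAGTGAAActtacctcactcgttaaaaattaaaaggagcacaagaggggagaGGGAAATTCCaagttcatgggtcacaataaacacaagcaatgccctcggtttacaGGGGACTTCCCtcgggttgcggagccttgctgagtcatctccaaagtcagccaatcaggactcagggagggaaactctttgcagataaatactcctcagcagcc
Cxcl9 promoter, chr5:92328080-92328329, minus strand: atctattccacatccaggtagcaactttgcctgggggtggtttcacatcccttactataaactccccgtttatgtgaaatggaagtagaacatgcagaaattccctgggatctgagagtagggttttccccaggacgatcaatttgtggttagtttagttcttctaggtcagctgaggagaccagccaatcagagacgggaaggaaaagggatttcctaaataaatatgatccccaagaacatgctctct
Cxcl2 promoter, chr5:90903649-90903898, plus strand: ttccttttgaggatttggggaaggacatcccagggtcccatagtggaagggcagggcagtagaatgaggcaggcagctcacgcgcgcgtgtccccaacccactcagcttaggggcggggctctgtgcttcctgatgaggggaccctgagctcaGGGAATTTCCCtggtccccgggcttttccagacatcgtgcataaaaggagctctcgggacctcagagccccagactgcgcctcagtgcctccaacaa

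The 4 motifs were searched on both strands of these 250 bases in the 7 members that the promoter table held, which leaves out Cxcl11 and Cxcl16, and in all 32851 promoters of the table. They were the core of the interferon-stimulated response element (GAAA, any 2 bases, GAAA), the STAT-binding GAS element (TTCNNNGAA) and the NF-kappaB consensus. The last was an exact ETS sequence (CCGGAAG), and shorter or variant ETS sites were not searched. The interferon-stimulated response element core was found in 2.98% of all promoters and, among the 7, in Cxcl10 and Cxcl14. In Cxcl10 it lay 213 to 204 bases before the start. The NF-kappaB consensus was found in 7.25% of all promoters and, among the 7, in Cxcl1, Cxcl2 and Cxcl10. In Cxcl10 it lay at 159 to 150 bases before the start and again, as overlapping matches on both strands, at 104 to 94 bases before the start. In Cxcl2 the overlapping matches lay 97 to 87 bases before the start. The GAS element was found in 7.02% of all promoters and in Cxcl14 among the 7. The exact ETS sequence was found in 6.91% of all promoters and in 0 of the 7, which does not show that shorter or variant ETS sites were absent. Cxcl9 held 0 matches to the 4 motifs in these 250 bases. Only fixed patterns were searched, so this does not show that variant sites of any of the 4 motifs were absent. Among the 7 genes searched, matches thus occurred in Cxcl10, which was called, and in Cxcl1, Cxcl2 and Cxcl14, which were not. The called gene Cxcl16 was not searched.

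Cxcl16, the ligand of Cxcr6, had log2 signals of 7.53, 7.53 and 7.97 on the Ets1-/- arrays, against 5.16, 5.55 and 4.04 on the wild-type arrays. The groups were separated by a gap of 1.98 on the log2 scale. Wild-type replicate 3 was lowest, and the spread was 0.25 in Ets1-/- and 0.78 in wild type (SD, n = 3 each). Cxcl16 rose by 2.76 ± 0.40 (SE; 95% interval 1.84 to 3.68), 2.98 above the median of all genes, with a limma adjusted p of 0.0145. This is a 6.78-fold difference in signal. The call ended without Ets1-/- replicates 1, 2 or 3, with adjusted p of 0.0561, 0.0603 and 0.0547.

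The 3 rises were set against each other within arrays. The log2 signal of Cxcl9 minus that of Cxcl10 on the same array, in which a shift of the whole array cancels, averaged 3.36 in Ets1-/- and 4.23 in wild type. That difference of -0.87 had an exact permutation p of 0.3 (two-sided; 0.45 adjusted over the 3 pairs). The corresponding values were -0.80 for Cxcl9 against Cxcl16 (exact p = 0.3, adjusted 0.45) and 0.08 for Cxcl10 against Cxcl16 (exact p = 0.9, adjusted 0.9). An exact permutation test of 3 arrays against 3 cannot go below 0.1, so none of these tests could have passed 0.05 and they do not show whether the sizes differ. With the pseudocount of 16 the rises were 1.07 for Cxcl10, 1.72 for Cxcl9 and 2.23 for Cxcl16, an order in which Cxcl10 came last. Each of Cxcl9, Cxcl10 and Cxcl16 had that smallest value of 0.1 by itself, which only restates that its groups did not overlap. Groups did not overlap in 5.76% of all genes with Ets1-/- higher and in 16.1% with Ets1-/- lower.

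The neutrophil-recruiting ligands Cxcl1 and Cxcl2 were not called. Cxcl1 had log2 signals of 1.61, 2.90 and 2.85 on the Ets1-/- arrays, against 3.39, 3.08 and 2.64 on the wild-type arrays. The groups overlapped, and Ets1-/- replicate 1, the array with the lowest median, was lowest. The log2 difference was -0.58 ± 0.40 (SE; 95% interval -1.50 to 0.34; limma adjusted p = 0.576), or -0.36 relative to the median of all genes, and -0.16 without that array. Cxcl2 had log2 signals of 4.50, 4.70 and 4.44 on the Ets1-/- arrays, against 4.63, 4.67 and 4.28 on the wild-type arrays. Its log2 difference of 0.02 ± 0.23 (SE; adjusted p = 0.978) had a 95% interval of -0.51 to 0.54 and was 0.24 relative to the median of all genes, and its sign turned with array weights (-0.033).

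The ligands that direct cells in resting lymphoid tissue were likewise not called. Cxcl12 had log2 signals of 3.34, 4.35 and 4.15 on the Ets1-/- arrays, against 4.22, 3.92 and 4.34 on the wild-type arrays. Cxcl13 had 3.46, 3.84 and 4.12 on the Ets1-/- arrays, against 3.71, 4.05 and 4.32 on the wild-type arrays. For both genes the groups overlapped. Cxcl14, a chemokine of epithelial tissues, had 4.66, 4.98 and 4.41 on the Ets1-/- arrays, against 4.66, 5.20 and 4.87 on the wild-type arrays, and these groups overlapped as well. The log2 differences were -0.21 ± 0.31 for Cxcl12, -0.22 ± 0.28 for Cxcl13 and -0.23 ± 0.26 for Cxcl14 (SE), with 95% intervals of -0.94 to 0.51, -0.86 to 0.42 and -0.83 to 0.38. Their limma adjusted p were 0.781, 0.744 and 0.720. Relative to the median of all genes the differences were 0.0064, -0.00025 and -0.0063. Their signs turned with cyclic loess, to 0.048 for Cxcl12, 0.046 for Cxcl13 and 0.014 for Cxcl14.

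The remaining CXC ligand genes comprised Cxcl3, Cxcl5, Cxcl15, Cxcl17, Pf4 and Ppbp. Of these 6, 1 rose and 0 fell. Pf4, which encodes the platelet chemokine Cxcl4 and is also expressed by some macrophages, had log2 signals of 5.33, 5.21 and 6.42 on the Ets1-/- arrays, against 1.85, 1.52 and 0.14 on the wild-type arrays. The groups did not overlap, and Pf4 rose by 4.48 ± 0.51 (SE; limma adjusted p = 0.00502). Its percentile among all probe sets was 66.3 to 80.1 on the Ets1-/- arrays and 1.96 to 6.15 on the wild-type arrays, so that wild-type Pf4, like Cxcl10, was among the dimmest probe sets and the size moved with the scale. With a pseudocount of 16 the difference was 1.86 (adjusted p = 0.00427). Ppbp, a platelet chemokine gene next to Pf4 in the gene table, averaged 3.10 in Ets1-/- and 3.57 in wild type, a log2 difference of -0.47 (adjusted p = 0.652).

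**Figure D2:**
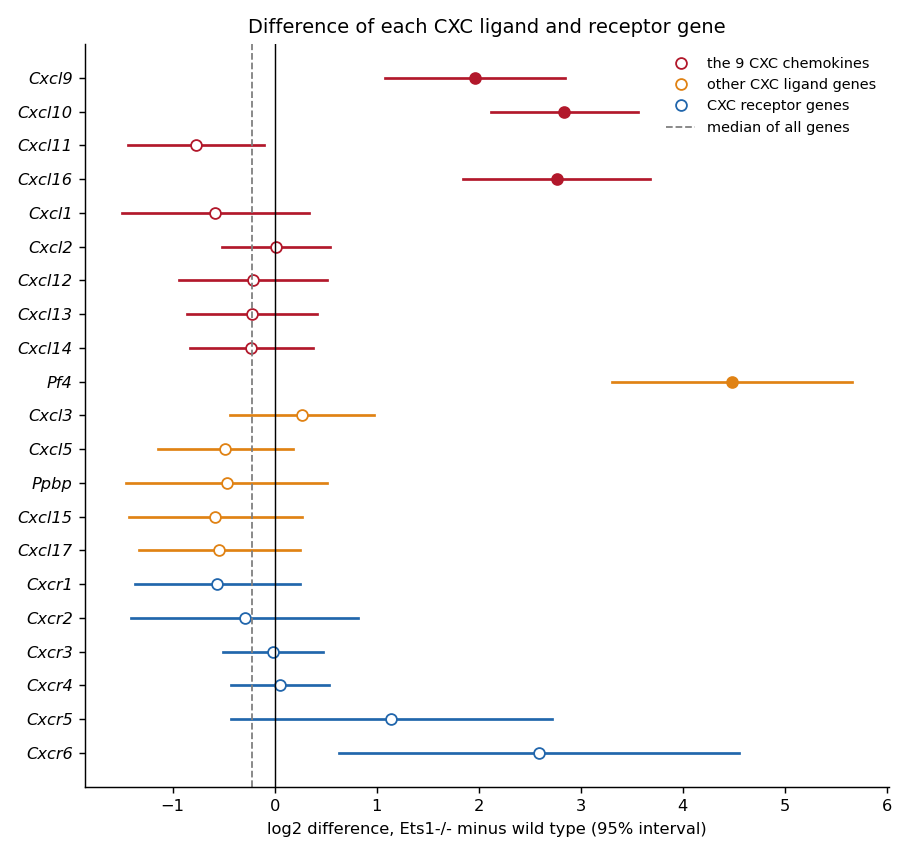
Log2 difference of Ets1-/- minus wild type with limma's 95% interval (horizontal axis) for the 9 CXC chemokines, the other 6 CXC ligand genes and the 6 CXC receptor genes (rows); filled points passed the limma test and the dashed line is the median of all genes, -0.22. Cxcl9, Cxcl10, Cxcl16 and Pf4 stand at 1.97, 2.84, 2.76 and 4.48 (1.72, 1.07, 2.23 and 1.86 with the pseudocount of 16), while most other genes lie near the dashed line.

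Of the 6 CXC receptor genes, 0 passed the limma test, and 1, Cxcr6, had an unadjusted p under 0.05. Cxcr4, the receptor of Cxcl12, had log2 signals of 10.22, 10.03 and 10.19 on the Ets1-/- arrays, against 10.07, 10.16 and 10.06 on the wild-type arrays, and its difference was 0.05 ± 0.21 (SE; 95% interval -0.43 to 0.53; adjusted p = 0.923). Cxcr3, the receptor of Cxcl9 and Cxcl10, averaged 4.73 ± 0.10 in Ets1-/- and 4.74 ± 0.10 in wild type (SD, n = 3 each), a difference of -0.02 (adjusted p = 0.976). The signs of both turned with quantile normalization, to -0.011 for Cxcr4 and 0.15 for Cxcr3. Cxcr6, the receptor of Cxcl16, had log2 signals of 6.63, 6.21 and 7.15 on the Ets1-/- arrays, against 4.94, 5.40 and 1.86 on the wild-type arrays. The groups did not overlap, but wild-type replicate 3 was far below the other arrays and the difference of 2.59 ± 0.85 (SE; 95% interval 0.63 to 4.55) did not pass the test (adjusted p = 0.235). Without that array it was 1.49 (adjusted p = 0.164). Cxcr5, the receptor of Cxcl13, had 7.46 on Ets1-/- replicate 3 and between 4.06 and 5.24 on the other arrays, with a difference of 1.14 (adjusted p = 0.531), and 0.32 without that array. Cxcr2, the receptor of Cxcl1 and Cxcl2, averaged 2.88 in Ets1-/- and 3.17 in wild type, a difference of -0.29 (adjusted p = 0.805), and its sign turned without Ets1-/- replicate 1 (0.29).

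Genes upstream and downstream of the chemokines were read from the same fit. Over all genes 1.29% were called higher and 0.568% lower. With shares that small, 0 calls in a list this short, here or among the receptors, is not read as a result. Of 8 measured genes of the interferon-gamma axis, 1 rose and 0 fell. That gene was Irf8, a transcription factor of myeloid and B cells, which rose by 2.51 ± 0.24 (SE; limma adjusted p = 0.00232). Ifng, which encodes the cytokine itself, averaged 4.49 ± 0.05 in Ets1-/- and 4.38 ± 0.06 in wild type (SD, n = 3 each), a difference of 0.10 (adjusted p = 0.837). Irf1, a factor induced by interferon-gamma, averaged 6.18 in Ets1-/- and 5.62 in wild type, a difference of 0.56 (adjusted p = 0.426). Ifng and Irf1 were singled out after their values were seen. Of 12 measured NF-kappaB and inflammatory genes, 0 rose and 1 fell: Ltb, which encodes lymphotoxin beta, averaged 4.92 in Ets1-/- and 7.92 in wild type, an 8.01-fold lower signal (adjusted p = 0.00338). At an unadjusted p under 0.05, 1 gene of this list was higher and 1 lower. The higher one was Il1b, which encodes an inflammatory cytokine, with log2 signals of 4.03, 6.42 and 5.99 in Ets1-/-, against 3.98, 3.85 and 3.90 in wild type (adjusted p = 0.287). Il1b was called with array weights and without Ets1-/- replicate 1, its lowest Ets1-/- array. Of 9 genes for scavenging receptors and ligand processing, 0 passed the limma test, and 1 had an unadjusted p under 0.05. Those with the smallest p were the scavenging receptor Ackr4 and the heparan sulfate proteoglycan Sdc4, with differences of 0.95 and 0.84 (adjusted p = 0.311 and 0.406). Of 11 measured genes of receptor signal transduction, 0 passed it, and 1 higher and 1 lower gene had an unadjusted p under 0.05. Rgs1, which dampens chemokine receptor signals, averaged 6.97 in Ets1-/- and 3.88 in wild type, a difference of 3.09 (adjusted p = 0.0743). It was called with median centring (adjusted p = 0.0416), with a pseudocount of 16 (0.00643), and without wild-type replicate 2 (0.0177), where the difference was 2.21. The arrestin gene Arrb1 averaged 3.86 in Ets1-/- and 5.15 in wild type, a difference of -1.29 (adjusted p = 0.177). Relative to the median of all genes, the median log2 difference was 0.36 for the interferon-gamma axis, 0.42 for the NF-kappaB list, 0.59 for scavenging and processing and -0.10 for signal transduction.

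The genes whose profile over the 6 arrays was most like each of the 3 called chemokines were found by the root mean square difference after each gene's own mean was subtracted. For Cxcl16 these were Tyrobp, Cd63 and Clec7a, at 0.15, 0.19 and 0.20 on the log2 scale. For Cxcl10 they were Cracdl, Cd300ld and Ccr10, at 0.22, 0.25 and 0.28. For Cxcl9 they were Atf6, Spic and Fabp5, at 0.21, 0.23 and 0.25. Tyrobp encodes a signalling adaptor of myeloid and natural killer cells, Clec7a the beta-glucan receptor of macrophages and dendritic cells, and Spic an ETS-family factor of macrophages. Only these 3 are described by cell type, and they do not stand for the whole list. Atf6 and Cracdl, the closest to Cxcl9 and to Cxcl10, are among those not described. Of these 9 genes, 8 passed the limma test upwards, and Spic had a difference of 1.57 (adjusted p = 0.0827). Likeness over 6 arrays in which the groups differ is a description, since many genes share that contrast.

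Markers of other cell types differed between the groups beside these chemokines. In bulk RNA, more cells of a type and more RNA per cell cannot be told apart. Of 13 measured macrophage and monocyte markers, 10 rose and 0 fell, and their summed linear signal ran from 3884 to 5241 on the Ets1-/- arrays, against 754 to 921 on the wild-type arrays. Csf1r, the growth factor receptor that defines this lineage, had 7.45, 7.80 and 8.33 in Ets1-/-, against 4.65, 4.61 and 4.38 in wild type. Of 11 measured dendritic-cell markers, 4 rose (Itgax, H2-Aa, H2-Ab1 and H2-Eb1) and 0 fell, with summed signals from 2940 to 3227 on the Ets1-/- arrays, against 478 to 521 on the wild-type arrays. The H2 genes encode MHC class II chains, which B cells and macrophages also carry. The median log2 difference of the dendritic list was 0.03, against 2.77 for the macrophage list and 2.08 for the B-cell list. Xcr1, a receptor of cross-presenting dendritic cells, averaged 3.58 in Ets1-/- and 4.73 in wild type (limma adjusted p = 0.266) and was the only dendritic marker lower at an unadjusted p under 0.05. Of 9 measured B-cell markers, 4 rose (Cd79a, Ms4a1, Ebf1 and Fcrla) and 0 fell, with summed signals from 406 to 845 in Ets1-/-, against 91.4 to 130 in wild type. With median centring 8 of the 9 B-cell markers were called. The part of macrophages, dendritic cells and B cells in the rises of Cxcl9, Cxcl10 and Cxcl16 was not tested.

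Markers of stromal cells and neutrophils, which are other sources of CXC chemokines, gave no calls in the fit as reported. Over all genes 1.29% were called higher and 0.568% lower, so 0 calls in such short lists is near those shares. Markers above the median signal were 2 of 10 for neutrophils, 6 of 10 for epithelium, 0 of 10 for fibroblasts and 1 of 9 for endothelium. The missing calls therefore say little about these cells. The limma count was 0 of 10 for neutrophils, 0 of 10 for thymic epithelium, 0 of 10 for fibroblasts and reticular stroma and 0 of 9 for endothelium, where 1, 1, 0 and 4 genes had an unadjusted p under 0.05, all of them lower in Ets1-/-. The summed linear signal was 88.7 to 127 in Ets1-/- and 126 to 164 in wild type for neutrophils, and 110 to 178 in Ets1-/- and 256 to 355 in wild type for endothelium. The endothelial marker Pecam1, with a log2 difference of -1.26, was called lower in 7 of the 11 alternatives that kept all arrays, median centring, quantile normalization and the pseudocount among them, and Eng in 2 of these. The mean log2 signal of the epithelial list was 3.31 to 4.36 in Ets1-/- and 4.13 to 4.27 in wild type, and that of the fibroblast list 2.28 to 3.32 in Ets1-/- and 2.93 to 3.25 in wild type. Of 9 measured double-positive thymocyte markers, 1 rose and 0 fell, and their mean log2 signal was 10.02 to 10.15 in Ets1-/- and 10.01 to 10.05 in wild type. The marker that rose was Ptcra, the pre-T-cell receptor chain of earlier thymocytes, at 9.29 in Ets1-/- and 7.79 in wild type (limma adjusted p = 0.0282). Its call ended without Ets1-/- replicates 2 or 3, or without any 1 of the wild-type arrays, with adjusted p from 0.0660 to 0.116.

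**Figure D3:**
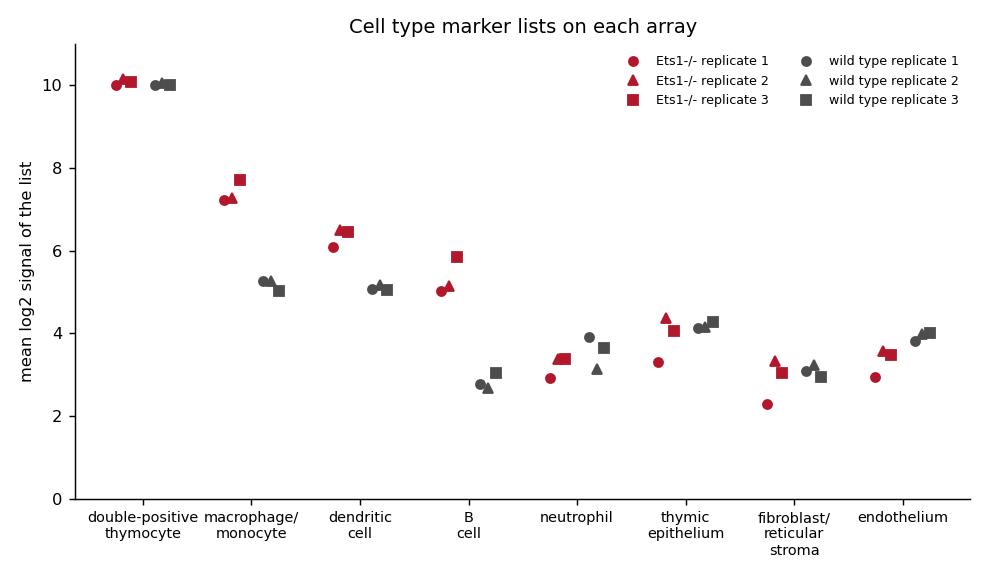
Mean log2 signal (vertical axis) of the measured genes of 8 cell type marker lists on the 3 Ets1-/- arrays (red) and the 3 wild-type arrays (grey), with circles, triangles and squares for replicates 1, 2 and 3. The macrophage, dendritic-cell and B-cell lists are higher on every Ets1-/- array, and the double-positive list is near 10 on all arrays. For the dendritic list 4 of 11 genes were called higher and the median log2 difference was 0.03. The endothelial list is lower on every Ets1-/- array (2.93 to 3.58, against 3.82 to 4.02 in wild type).

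Across the series 413 genes were called, 287 higher and 126 lower, and with a pseudocount of 16 the split was 484 higher and 423 lower. Ets1 itself averaged 9.09 ± 0.27 in Ets1-/- and 9.20 ± 0.11 in wild type (SD, n = 3 each; limma adjusted p = 0.860), with a sign that turned under median centring (0.11). The labels do not say whether its probe set covers the deleted part, so this is no check of the genotype and directions refer to the arrays labelled Ets1-/-. Array medians ran from 3.66 to 4.31 in Ets1-/- and from 4.21 to 4.33 in wild type, with Ets1-/- replicate 1 lowest. Without that array Cxcl10 rose by 3.10, while Cxcl9 and Cxcl16 had differences of 1.90 and 2.84 that were not called. Cxcl10 was called in all 6 fits that left out 1 array, with adjusted p from 0.00736 to 0.0275.

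**Figure D4:**
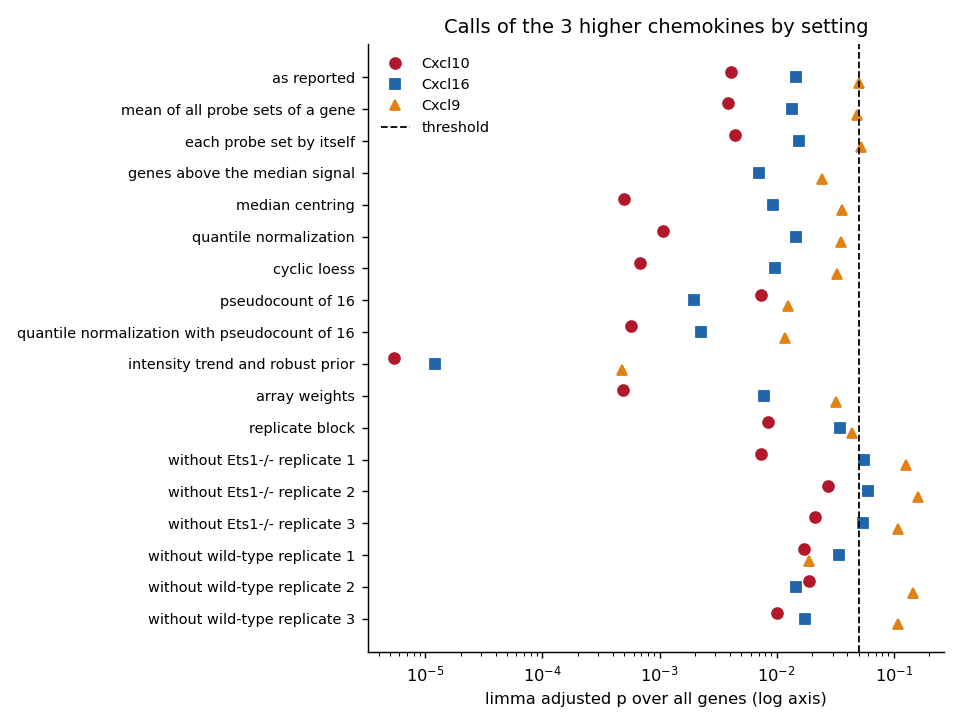
Limma adjusted p (horizontal log axis) of Cxcl10 (circles), Cxcl16 (squares) and Cxcl9 (triangles) under each processing setting and each omission of 1 array (rows); the dashed line is the threshold of 0.05. Cxcl10 stays left of the line wherever it was tested, Cxcl16 crosses it without any 1 of the Ets1-/- arrays, and Cxcl9 lies on it as reported and crosses it in 6 rows.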

How the data were processed

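RNA of 3 Ets1-/- and 3 wild-type samples was measured on Affymetrix arrays. The deposited table holds log2 signals of 41345 probe sets. Their scale was read from the values, and the tool was affy, per the submitters' processing notes. The sources used here name no background correction, normalization or build. The array number limits precision, and no depth or detection call exists.

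Platform annotation named 1 gene for 23521 probe sets, several for 1814 and none for 16010. The probe set with the highest mean over all arrays stood for each of 22180 genes. limma 3.58.1 (R 4.3.3; lmFit and eBayes, two-sided) was fitted to all genes without a covariate, as Ets1-/- minus wild type, with Benjamini-Hochberg adjustment over all genes and a threshold of 0.05. SE and 95% intervals are limma's. The fit was tested on simulated data. Plots used matplotlib 3.10.9 and exact tests scipy 1.17.1.

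Named were all 9 chemokines, their receptors, list members past the test (up to 6, otherwise the 2 with the smallest p) and the 3 genes most like each called chemokine. Il1b, Xcr1, Pecam1 and Eng were named after their values were seen. The members and lists were chosen with earlier results of these data known. Each limma p-value weighs the group difference against the spread between arrays of a group, moderated over all genes. Whether that spread is between single animals is not known, since the animals per array are not stated.

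Replicate numbers are shared by the groups, but deviations of same-numbered arrays from their group means correlated at -0.08, -0.08 and -0.15, so no pairing was used. Alternatives covered probe set choice, a filter at the median signal, 3 normalizations, a pseudocount of 16, variance models, a replicate block and each array left out.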

Additional observations from a re-analysis of the deposited data

How the results depend on the processing

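The 3 rises of Cxcl9, Cxcl10 and Cxcl16 kept their direction under every alternative that tested them. All 3 were called with median centring, quantile normalization, cyclic loess, the pseudocount of 16, array weights and an intensity trend. With the replicate number as a block, the same 3 chemokines were called among 311 genes, and the block ended the call of Ptcra (adjusted p = 0.0871). Leaving out 1 array at a time gave 1 to 3 called chemokines and 190 to 379 called genes, against 3 and 413 with all arrays. The filter at the median signal removed Cxcl10 and tested 4 of the 9 chemokines, of which 2 were called.

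The number of called genes was 745 with median centring, 798 with quantile normalization, 777 with cyclic loess, 907 with the pseudocount, 1350 with quantile normalization and the pseudocount, 1172 with an intensity trend and robust prior, and 1019 with array weights. The cause was not tested.

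Genes with differences near 0 changed sign without being called. With quantile normalization, alone and then with the pseudocount, Cxcl12 was at 0.0078 and 0.0035, Cxcl13 at 0.0063 and 0.0018, Cxcr3 at 0.15 and 0.097, and Cxcr4 at -0.011 and -0.011. With cyclic loess Cxcl12, Cxcl13, Cxcl14 and Cxcr3 were at 0.048, 0.046, 0.014 and 0.22. With median centring Cxcr3 and Ets1 were at 0.19 and 0.11. With array weights Cxcl2, Cxcl12 and Cxcr2 were at -0.033, 0.079 and 0.18. With 1 array left out, Cxcl2 ran from -0.11 to 0.087, Cxcl12 from -0.42 to 0.089, Cxcr2 from -0.71 to 0.29, Cxcr3 from -0.074 to 0.031 and Ets1 from -0.19 to 0.049. Of the named genes, Rgs1 and Spic were called under some alternatives, and Arrb1 with an intensity trend (adjusted p = 0.0391). Atf6 lost its call without 5 of the 6 arrays, and Ccr10 and Fabp5 lost theirs without Ets1-/- replicate 2 (adjusted p = 0.0541 and 0.0543).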

Other observations

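The genes around Cxcl16 on chromosome 11 were not called. Only 1.86% of all genes were called, so neighbours of Cxcl16 or Pf4 without a call are near that share and are not read as a result. In the RefSeq gene order the nearest 3 measured genes on either side were Pelp1, Arrb2 and Med11, and Zmynd15, Tm4sf5 and Vmo1. Their log2 differences of Ets1-/- minus wild type ran from -0.69 for Arrb2 to 0.62 for Med11, with limma adjusted p of 0.338 or more. Around Pf4 on chromosome 5 the nearest 3 on either side were Rassf6, Cxcl5 and Ppbp, and Cxcl3, Cxcl15 and Cxcl1, with differences from -0.58 to 0.27 and adjusted p of 0.528 or more. These neighbours were chosen after the rises of Cxcl16 and Pf4 were seen.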
